A study of Mus musculus with 52 samples.

Results

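The data described here are 12 bulk RNA-seq libraries of primary mouse astrocytes, of 52 samples in the study, in which the response to palmitic acid was set against Apoe genotype. The comparison is a difference of differences: the palmitic acid effect in APOE KO astrocytes minus the palmitic acid effect in wild type astrocytes, on log2(TPM + 1). It is called the interaction term below, and a positive value means that a gene stood relatively higher with palmitic acid in APOE KO than in wild type cells.

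The 4 groups held 3 libraries each, all labelled C57BL/6: APOE KO astrocytes treated with palmitic acid, untreated APOE KO astrocytes, wild type (WT) astrocytes treated with palmitic acid, and untreated WT astrocytes. The study as a whole concerned astrocytes that accumulate lipid and become reactive in epilepsy, and its astrocyte part held 27 libraries in 9 groups, among them APOE KO and WT cells given oleic acid. The labels name no dose, exposure time, age of the animals, deleted exon or second agent, and do not say whether the 3 libraries of a group came from separate cultures. The third library of each APOE KO group used here carries the word mix in its title, which the labels do not explain.

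Palmitic acid is a saturated fatty acid that cells use for membrane lipids, triglycerides and ceramides, and an excess of it is a classical trigger of stress in the endoplasmic reticulum. Oleic acid, its monounsaturated counterpart, is stored readily as triglyceride in lipid droplets. Apolipoprotein E is the main lipid carrier that astrocytes secrete, and cells balance cholesterol supply through the transcription factor SREBP2, which switches on the genes of cholesterol synthesis and uptake when sterols in the endoplasmic reticulum are low.

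The deleted gene was low in every APOE KO library. Apoe (chromosome 7, 19696109 to 19699188, minus strand, mm10 coordinates from GENCODE M21) had 7.53, 7.66 and 5.36 TPM in the KO palmitic acid libraries, against 40.4, 47.1 and 43.5 TPM in untreated KO libraries. In WT cells Apoe had 2462, 2225 and 2221 TPM with palmitic acid, against 4234, 4787 and 5024 TPM without it. The KO and WT ranges were far apart under both conditions. Levels are given in TPM, a length-corrected share of each library and not a number of molecules, and the sequencing depth behind them is unknown.

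The KO palmitic acid libraries stood apart from the other 9. Between 12057 and 12915 genes reached 1 TPM in them, against 14422 to 14488 in untreated KO, 13721 to 13839 in WT with palmitic acid and 14410 to 14553 in untreated WT. Ribosomal protein genes took 16.8% to 19.3% of all TPM in KO cells with palmitic acid and 10.1% to 10.3% in untreated KO cells, against 10.8% to 11.8% in WT cells with palmitic acid and 7.52% to 7.87% in untreated WT cells. Because TPM values sum to a fixed total, a rise of abundant genes lowers all others on this scale. Rescaling each library by the median ratio of its genes to their mean moved the median interaction term of all genes up by 0.37. Changes are therefore given beside that shift, and lists whose balance of higher and lower interaction terms it turned are given with both counts. The part of the ribosomal protein genes in that shift was not tested. Cells given palmitic acid are called treated below. The KO palmitic acid library titled mix lay between the other 2 of its group for 64.3% of genes, against 27.8% to 38.6% for each library of the 3 other groups. Whether it is an independent sample is not stated in the labels, and if it is not, p-values for that group are too small. In bulk libraries fewer cells of a type and less RNA per cell cannot be told apart.

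**Figure D1:**
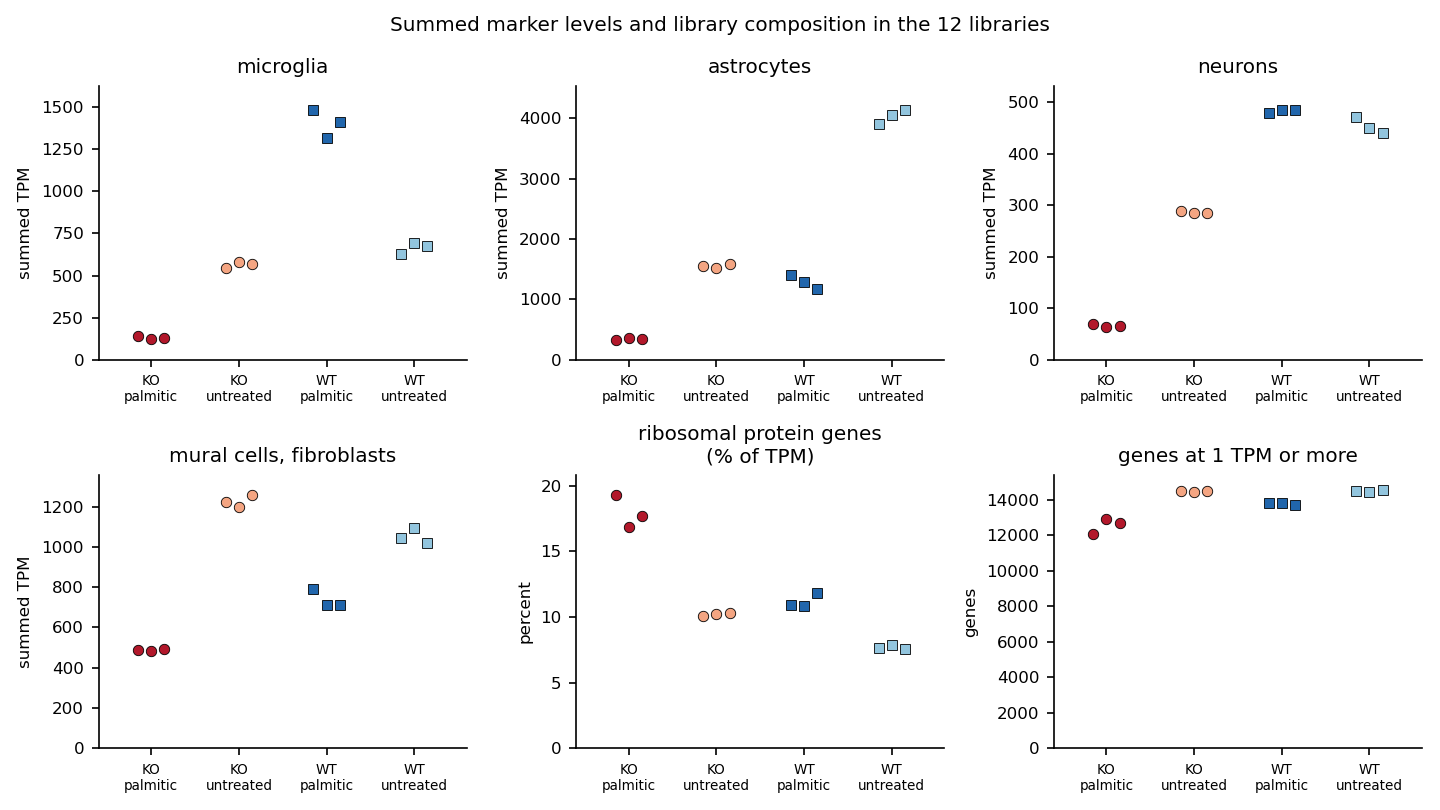
Summed TPM of marker genes of 4 cell types, the percent of TPM in ribosomal protein genes and the number of genes at 1 TPM or more (y axes) in each of the 12 libraries (points, 3 per group on the x axis). The KO palmitic acid libraries had the lowest marker sums and the highest ribosomal share, 16.8% to 19.3%, and microglia markers summed to 123 to 139 TPM in them against 1320 to 1481 TPM in WT cells with palmitic acid.

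The responses of the 2 genotypes differed for most of the genes measured, and the genes that stood higher or lower fell into recognisable groups. Genes of cholesterol synthesis were higher with palmitic acid in KO cells and lower with it in WT cells. Stress genes were raised in both genotypes, while most chemokine, proliferation and microglia genes had interaction terms below 0. With limma, 9304 of 16161 genes (57.6%) had an interaction term past a Benjamini-Hochberg adjusted p of 0.05, 2319 of them higher (14.3%) and 6985 lower (43.2%), with a median of −0.35 over all genes. After median-ratio scaling, 8896 of 16098 genes (55.3%) passed, of which 4639 were higher (28.8%) and 4257 lower (26.4%).

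Taken by genotype, palmitic acid changed 12168 genes in KO astrocytes (75.3%), with 3222 higher (19.9%) and 8946 lower (55.4%), or after scaling 12019 genes (74.7%), 5759 higher (35.8%) and 6260 lower (38.9%). In WT astrocytes it changed 9668 genes (59.8%), with 4325 higher (26.8%) and 5343 lower (33.1%), or after scaling 9604 genes (59.7%), 4727 higher (29.4%) and 4877 lower (30.3%). These contrasts share no library. Across genes, which are not independent, the KO and WT effects had a Spearman correlation of 0.538, and the median absolute effect was 0.687 in KO and 0.452 in WT cells. Of the genes with a higher interaction term, 248 rose in KO and fell in WT cells, 512 rose in both and 554 fell in both. Of those with a lower term, 1064 fell in KO and rose in WT cells, 1733 fell in both and 516 rose in both. After scaling, the genes that rose in KO and fell in WT cells numbered 587, and those that did the reverse 632. Without the first KO palmitic acid library, which had the fewest genes at 1 TPM, 8571 interaction terms passed, and the lists kept their sides: 23 of 26 cholesterol genes were higher, and 22 of 29 chemokine genes, 29 of 30 cell cycle genes and 17 of 19 microglia markers were lower. Without both libraries titled mix, which leaves 2 in each KO group, 8644 terms passed, with 23 cholesterol genes higher and 20 chemokine genes, 29 cell cycle genes and 17 microglia markers lower.

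**Figure D2:**
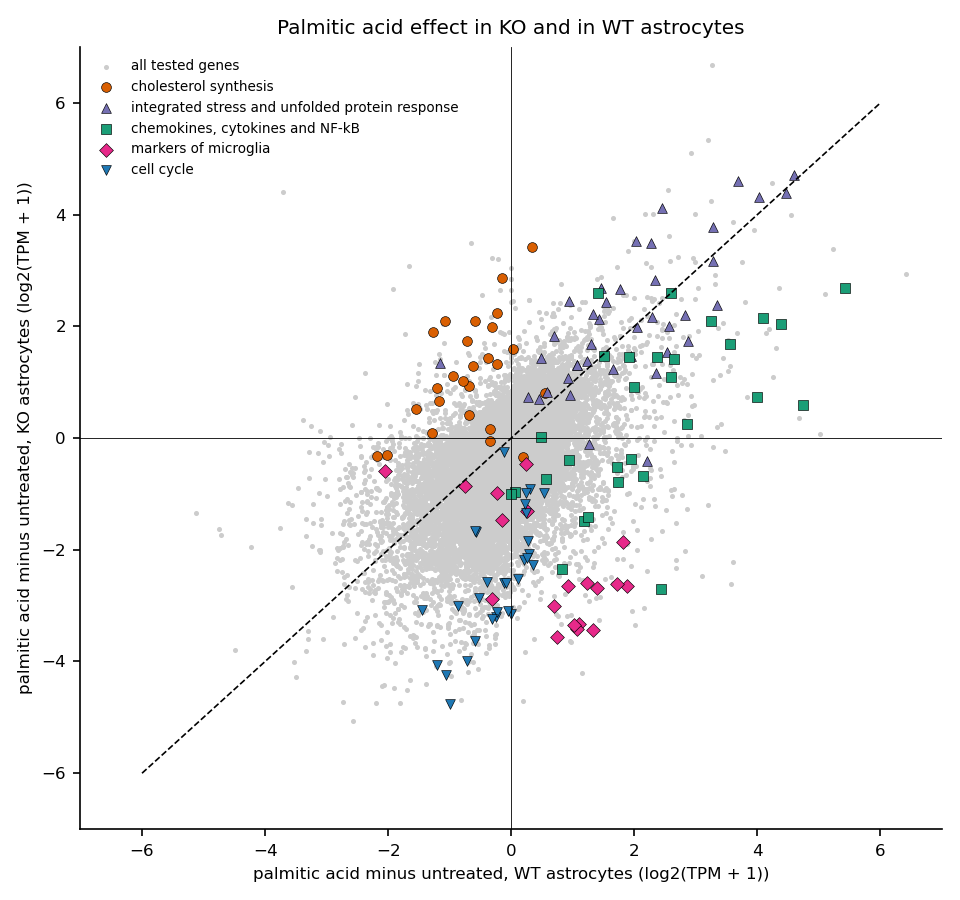
Palmitic acid effect in KO astrocytes (y axis) against that in WT astrocytes (x axis), both in log2(TPM + 1), for 16161 genes (grey) with 5 gene lists in colour. Points on the dashed line have equal effects: most cholesterol synthesis genes lie above it, above 0 in KO and below 0 in WT cells, with Insig2 below it, and most microglia markers and cell cycle genes lie below it, with Tmem119 above.

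Cholesterol synthesis genes went up with palmitic acid in KO cells and down in WT cells. Of 26 genes of the pathway and its control, 24 had a higher interaction term and 1 a lower one, with a median of 1.85 against −0.35 for all genes. Palmitic acid raised 20 of the 26 in KO cells and lowered none (median 1.06), whereas in WT cells it raised 2 and lowered 20 (median −0.65). For 15 genes both held: they rose in KO and fell in WT cells. After scaling, 25 of 26 were higher and none was lower, with a median of 2.31.

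The promoters of 3 of these genes are shown because all 3 had a higher interaction term, although they differed in which genotype changed, and their sequences carry, or lack, the motifs usually looked for in this pathway. Each is a window of 300 bases from RefSeq on GRCm38.p6, 250 before and 50 after the annotated start, and capitals mark matches, on either strand, to the CCAAT box (CCAAT or ATTGG) and to a sterol response element (TCACNCCAC or GTGGNGTGA). Hmgcs1 lies at chr13:119690101-119690400 on the plus strand, Mvd at chr8:122443373-122443672 on the minus strand and Lss at chr10:76531355-76531654 on the plus strand.
Hmgcs1: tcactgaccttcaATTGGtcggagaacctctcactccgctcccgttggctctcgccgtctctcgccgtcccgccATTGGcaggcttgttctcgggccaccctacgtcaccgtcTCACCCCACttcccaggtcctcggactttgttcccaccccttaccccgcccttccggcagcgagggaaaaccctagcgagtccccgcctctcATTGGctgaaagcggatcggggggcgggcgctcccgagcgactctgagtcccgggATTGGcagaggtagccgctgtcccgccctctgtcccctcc
Mvd: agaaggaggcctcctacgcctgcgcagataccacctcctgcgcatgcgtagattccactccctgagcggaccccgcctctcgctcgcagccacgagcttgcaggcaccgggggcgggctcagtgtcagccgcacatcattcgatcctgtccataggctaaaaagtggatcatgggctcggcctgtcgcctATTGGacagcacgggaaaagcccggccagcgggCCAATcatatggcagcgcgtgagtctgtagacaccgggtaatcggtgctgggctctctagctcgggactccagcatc
Lss: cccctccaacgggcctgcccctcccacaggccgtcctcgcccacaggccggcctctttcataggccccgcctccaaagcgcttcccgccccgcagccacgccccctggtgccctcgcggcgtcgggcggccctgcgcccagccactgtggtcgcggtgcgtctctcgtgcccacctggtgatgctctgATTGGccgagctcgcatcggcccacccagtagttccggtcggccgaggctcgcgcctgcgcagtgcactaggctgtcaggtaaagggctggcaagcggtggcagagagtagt

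Of the 26 genes, 19 have a window in the table. A CCAAT box was present in 17 of those 19 genes (89.5%), against 41.1% of all 27025 genes with a window. The sterol response element as spelled here was present in 1 of 19 (5.26%), Hmgcs1, against 1.44% of all genes. In the Hmgcs1 window it was accompanied by 4 CCAAT boxes, while the Mvd window held 2 and the Lss window 1. A match describes the letters of the window and is not evidence of binding.

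The sterol sensor genes showed the pattern plainly. Insig1, which holds the SREBP complex in the endoplasmic reticulum and is itself an SREBP target, had 156, 233 and 206 TPM in KO cells with palmitic acid, against 47.0, 45.7 and 43.2 TPM in untreated KO cells. In WT cells its levels were 46.6, 47.8 and 49.8 TPM with palmitic acid, against 106, 107 and 94.5 TPM without. All 3 treated KO libraries lay above every other library, and all 3 treated WT libraries lay below the untreated WT ones. The interaction term was 3.16 ± 0.13 (SE; limma adjusted p = 4.17e-14). Srebf2, which encodes SREBP2, had 122, 117 and 123 TPM in treated KO, against 63.5, 61.8 and 63.4 TPM in untreated KO cells, and 54.0, 57.1 and 57.4 TPM in treated WT, against 88.0, 97.0 and 89.0 TPM in untreated WT cells. Here too KO libraries rose and WT libraries fell without overlap, with an interaction term of 1.62 ± 0.10 (SE). Scap, the escort protein of SREBP, had a smaller term of 0.29. Insig2 was the 1 gene with a lower term, −0.54 ± 0.23 (SE; limma adjusted p = 0.0482), which was −0.06 and no longer called after scaling.

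Enzymes from the middle of the pathway had high terms. Fdps, which makes farnesyl diphosphate (chromosome 3, 89093588 to 89101959, minus strand), had 809, 620 and 691 TPM with palmitic acid in KO cells, against 65.4, 64.0 and 65.9 TPM untreated. The WT levels of Fdps were 162, 175 and 208 TPM with palmitic acid, against 154, 147 and 130 TPM untreated. The treated KO libraries lay far above all others, and treated WT libraries lay only slightly above untreated WT ones. The effect was 3.41 in KO and 0.33 in WT cells, and the interaction term was 3.08 ± 0.16 (SE; limma adjusted p = 8e-13).

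Mvd, the mevalonate diphosphate decarboxylase, had 121, 93.3 and 108 TPM in treated KO cells, against 13.5, 12.4 and 15.8 TPM in untreated KO cells, and 23.7, 24.8 and 25.3 TPM in treated WT, against 27.6, 28.8 and 25.8 TPM in untreated WT cells. The KO groups were far apart, and the WT effect of −0.15 did not pass the threshold (limma adjusted p = 0.21). The same held for Lss, the lanosterol synthase, with 44.3, 49.8 and 44.1 TPM in treated KO, against 8.45, 8.02 and 10.5 TPM in untreated KO cells, and a WT effect of −0.23. Cyp51, Fdft1 and Sqle, which act between squalene formation and lanosterol demethylation, had terms of 2.44, 2.30 and 2.06.

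Hmgcs1 and Idi1 were called lower in WT cells and were not called in KO cells. Hmgcs1, the cytosolic HMG-CoA synthase whose promoter holds the sterol response element, had 26.3, 65.6 and 51.4 TPM in treated KO, against 57.0, 54.9 and 56.0 TPM in untreated KO cells. In WT cells Hmgcs1 had 49.5, 53.6 and 49.97 TPM with palmitic acid, against 243, 221 and 237 TPM without. The KO groups overlapped and their difference of −0.32 did not pass (limma adjusted p = 0.16), so the interaction term of 1.86 ± 0.28 (SE) came with a fall of 2.17 in WT cells. Idi1, the isopentenyl diphosphate isomerase, likewise fell by 2.02 in WT cells, with an uncalled KO effect of −0.31 and a term of 1.72 ± 0.42 (SE; limma adjusted p = 0.00162).

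**Figure D3:**
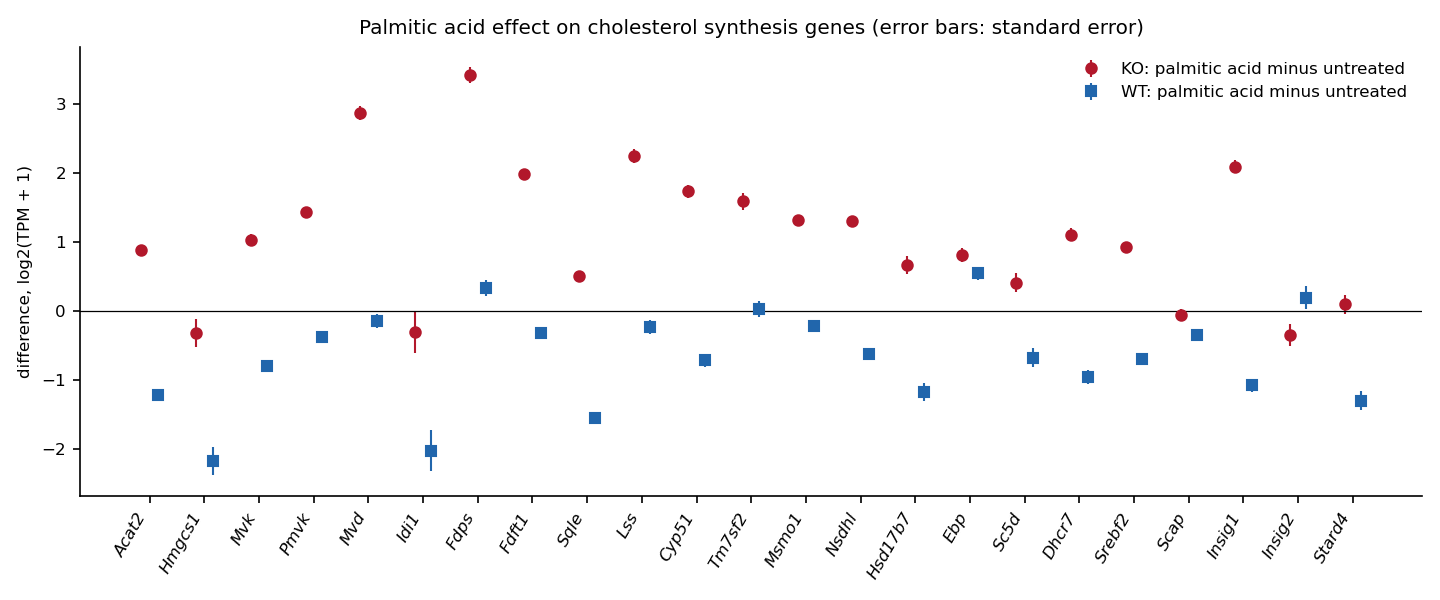
Palmitic acid effect (y axis, log2(TPM + 1), with its SE as error bar) in KO and in WT astrocytes for 23 of the 26 cholesterol genes (x axis). KO effects lie above 0 for 18 called genes and WT effects below 0 for 17 called genes, and the gap is widest for Insig1.

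Fatty acid synthesis leaned the same way. Of 21 measured genes, 15 had a higher interaction term and 2 a lower one, Elovl7 and Elovl4 (median 0.51). After scaling 18 were higher and 1 was lower, since the term of Elovl4, which was −0.47, came to −0.09. Scd2, a stearoyl-CoA desaturase that turns palmitic and stearic acid into monounsaturated fatty acids, had 569, 642 and 642 TPM in treated KO, against 237, 248 and 248 TPM in untreated KO cells. Its WT levels were 308, 312 and 276 TPM with palmitic acid, against 816, 878 and 839 TPM without. The groups did not overlap within either genotype, the directions were opposite, and the term was 2.83 ± 0.10 (SE; limma adjusted p = 1.97e-15). Fasn, the fatty acid synthase, had 174, 159 and 167 TPM in treated KO, against 66.1, 66.8 and 60.4 TPM in untreated KO cells, and 81.4, 72.9 and 66.5 TPM in treated WT, against 97.0, 99.9 and 97.2 TPM in untreated WT cells. Its KO libraries rose and its WT libraries fell, with a term of 1.77. Srebf1, whose product drives fatty acid synthesis, had a term of 1.55, and Scd1 a term of 1.48 with no called change in WT cells.

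Lipid export and lipoprotein handling split. Of 18 genes of sterol efflux and the LXR receptors, 10 had a higher term and 7 a lower one (median 0.53), or 11 and 4 after scaling, and 3 of the higher ones, Srebf1, Scd1 and Scd2, belong to fatty acid synthesis as well. Abca1, the transporter that loads cholesterol onto apolipoproteins, had 5.07, 12.1 and 9.69 TPM in treated KO, against 44.9, 45.2 and 47.4 TPM in untreated KO cells, and 76.7, 81.6 and 63.9 TPM in treated WT, against 125, 118 and 129 TPM in untreated WT cells. It fell in both genotypes and more in KO cells, with a term of −1.57 ± 0.27 (SE; limma adjusted p = 5.22e-05). Npc1 and Npc2, which release cholesterol from lysosomes, had terms of 0.81 and 0.92. Of 16 apolipoprotein and uptake genes, 5 had a higher and 8 a lower term, or 6 and 6 after scaling. Lpl, the lipoprotein lipase, had 0.27, 1.15 and 0.77 TPM in treated KO, against 19.8, 17.2 and 19.2 TPM in untreated KO cells, while in WT cells it had 46.1, 47.4 and 41.0 TPM treated, against 69.8, 66.8 and 72.8 TPM untreated. The treated KO libraries were the lowest of all, with a term of −2.91.

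Lipid droplet genes leaned towards higher terms than genes at large, and Plin2 rose in both genotypes. Plin2, the perilipin that covers lipid droplets, had 428, 388 and 388 TPM with palmitic acid in KO cells, against 87.6, 87.3 and 93.9 TPM untreated, and in WT cells 319, 313 and 349 TPM with palmitic acid, against 81.2, 87.1 and 84.6 TPM untreated. It rose in both genotypes without overlap, by 2.15 in KO and 1.94 in WT cells. The interaction term of 0.21 ± 0.08 (SE; limma adjusted p = 0.0331) was near the threshold and lost its call under 10 of the other settings, while scaling gave 0.69. Of 17 lipid droplet genes measured, 5 had a higher and 3 a lower term (median 0.12), or 10 and 1 after scaling. The higher share was 29.4%, against 14.3% of all genes, or 58.8%, against 28.8%, after scaling. The lower share was 17.6%, against 43.2% of all genes, or 5.88%, against 26.4%, after scaling.

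Stress genes rose in both genotypes. Of 40 genes of the integrated stress response and the unfolded protein response, palmitic acid raised 38 in KO cells (median 2.0) and 37 in WT cells (median 1.86), and 35 rose in both. The interaction term was higher for 17 and lower for 9 (median 0.25), or 24 and 5 after scaling. The higher terms included chaperones of the endoplasmic reticulum, and the lower ones included the transcription factors Cebpb (−1.18) and Cebpg (−1.38) and the mitochondrial folate enzyme Mthfd2 (−0.99).

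Ddit3, which encodes the stress-induced factor CHOP, had 870, 1034 and 962 TPM in treated KO, against 39.0, 39.4 and 37.0 TPM in untreated KO cells, and 521, 507 and 538 TPM in treated WT, against 38.3, 44.5 and 36.1 TPM in untreated WT cells. The untreated groups overlapped, both treated groups were far above them, and treated KO exceeded treated WT in every library. The term was 0.91 ± 0.12 (SE; limma adjusted p = 1.22e-06). Hspa5, the chaperone BiP, had 2610, 3985 and 3409 TPM in treated KO, against 541, 510 and 505 TPM in untreated KO cells, and 1496, 1726 and 1761 TPM in treated WT, against 505, 475 and 478 TPM in untreated WT cells, again with treated KO above treated WT throughout. Sdf2l1 and Creld2, also induced by misfolded protein in the endoplasmic reticulum, had terms of 1.67 and 1.5, and Pdia4, a disulfide isomerase, 1.5.

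Several of the most strongly induced genes did not differ between genotypes beyond their error. Trib3, a pseudokinase downstream of ATF4, had 235, 199 and 212 TPM in treated KO, against 7.51, 7.42 and 6.78 TPM in untreated KO cells, and 130, 121 and 127 TPM in treated WT, against 3.41, 4.58 and 4.80 TPM in untreated WT cells. Both KO groups stood above their WT counterparts, and the term was 0.11 ± 0.24 (SE; limma adjusted p = 0.712). Chac1, which degrades glutathione, had a term of −0.07 (limma adjusted p = 0.764). Hmox1, the heme oxygenase, had 3378, 3240 and 3314 TPM in treated KO, against 223, 226 and 226 TPM in untreated KO cells, and 1856, 1949 and 2371 TPM in treated WT, against 164, 174 and 164 TPM in untreated WT cells, with a term of 0.27 (limma adjusted p = 0.109). After scaling Hmox1 was called, at 0.75.

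Genes of amino acid supply divided: Phgdh and Psph, of serine synthesis, had terms of 0.70 and 0.48, whereas other genes had terms below 0. Asns, the asparagine synthetase, had 308, 278 and 293 TPM in treated KO, against 54.1, 58.0 and 54.5 TPM in untreated KO cells, and 305, 302 and 325 TPM in treated WT, against 30.6, 30.5 and 28.5 TPM in untreated WT cells. The treated levels nearly met, and the difference lay in the untreated cells, which gave a term of −0.96. Of 20 aminoacyl-tRNA synthetases, which charge tRNAs and are ATF4 targets in part, 2 had a higher and 16 a lower term (median −0.53). That list depended on the scale: after scaling 4 were higher and 8 lower (median −0.05). Atf4 itself had a term of −0.61, which scaling reduced to −0.13 without a call.

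Ddit4 was the 1 gene of the stress list called higher in KO and lower in WT cells, and 1 gene was called the reverse way. Ddit4 encodes REDD1, an inhibitor of mTORC1, and had 108, 108 and 107 TPM in treated KO, against 43.6, 39.0 and 43.2 TPM in untreated KO cells. In WT cells it had 35.0, 33.0 and 37.0 TPM treated, against 79.2, 82.4 and 76.3 TPM untreated. It rose in KO and fell in WT cells with no overlap, and the term was 2.50 ± 0.13 (SE; limma adjusted p = 1.57e-12).

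The cytosolic HSP70 genes were raised in both genotypes and more in KO cells. Hspa1a had 287, 286 and 292 TPM in treated KO, against 7.17, 7.46 and 7.59 TPM in untreated KO cells, and 62.1, 66.1 and 71.8 TPM in treated WT, against 6.83, 8.67 and 8.39 TPM in untreated WT cells, with a term of 2.19 ± 0.12 (SE). Hspa1b, a near-identical copy whose reads cannot be separated with certainty, had a term of 2.13. Of 20 heat shock chaperones 9 had a higher and 6 a lower term, or 11 and 2 after scaling, with the small chaperone Hspb1 at 1.52 and Cryab at −1.21.

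**Figure D4:**
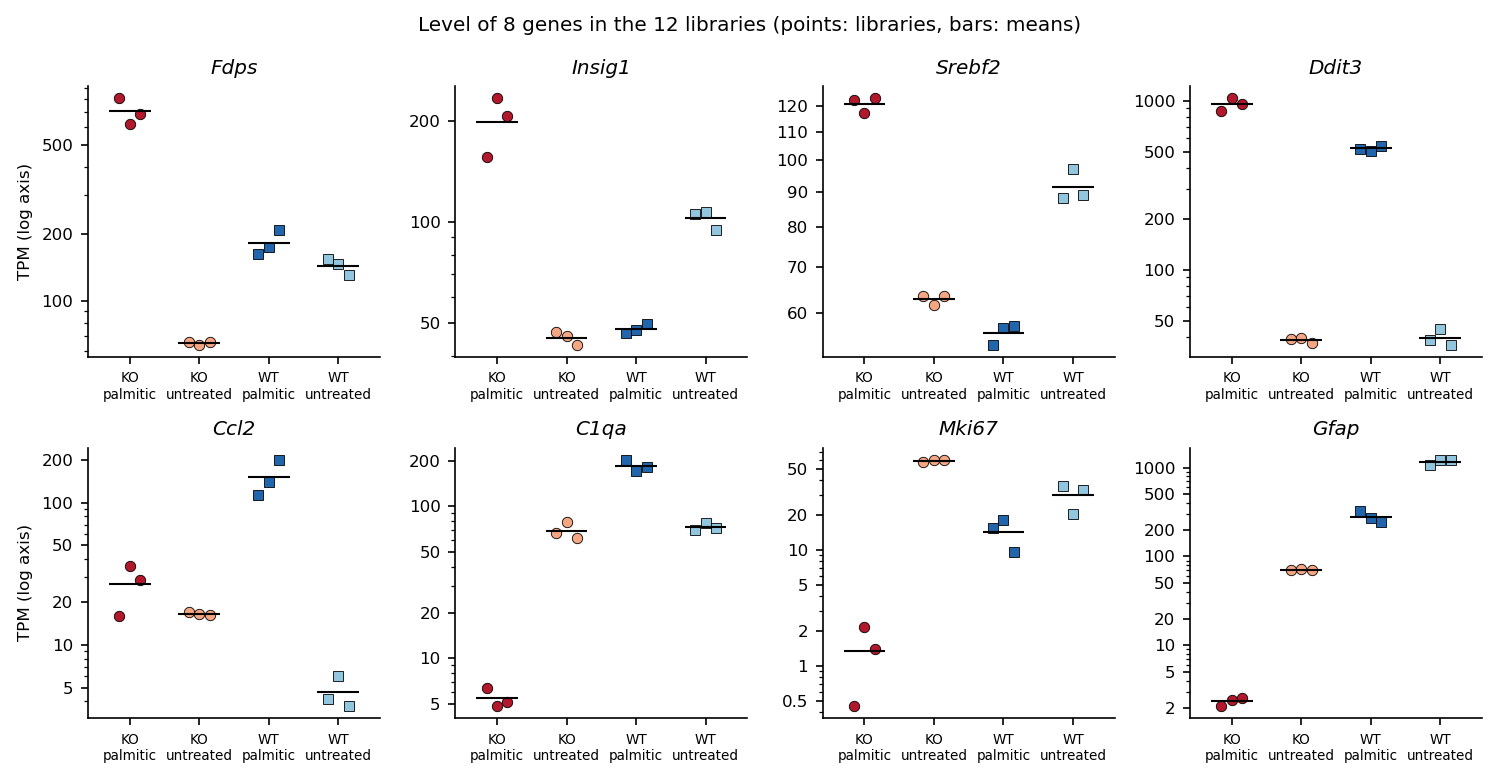
Levels (y axis, TPM on a log scale) of 8 genes in the 12 libraries (points, with the group mean as a bar), by group on the x axis. Fdps, Insig1 and Srebf2 are highest in KO cells with palmitic acid, Ddit3 is raised in both treated groups, and C1qa, Mki67 and Gfap are lowest in KO cells with palmitic acid, Gfap at 2.08 to 2.56 TPM.

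Metallothioneins, small proteins that bind zinc and copper, went in opposite directions in the 2 genotypes. Mt1 had 1034, 1067 and 1028 TPM in treated KO, against 663, 668 and 720 TPM in untreated KO cells, and 636, 636 and 701 TPM in treated WT, against 1714, 1901 and 2010 TPM in untreated WT cells. Its KO libraries rose and its WT libraries fell without overlap, with a term of 2.12 ± 0.10 (SE; limma adjusted p = 1.75e-13). Mt2 gave 2.11 ± 0.09 (SE), with an effect of 0.42 in KO and −1.69 in WT cells. Mt3, the form best known from brain, fell in both genotypes and more in KO cells: it had 175, 135 and 172 TPM in treated KO, against 796, 785 and 878 TPM in untreated KO cells, and a term of −1.21.

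The promoters of Mt1 and Mt2 are shown because these neighbouring genes had nearly equal terms. Capitals mark core metal response elements, the binding motif of the zinc sensor MTF1, spelled TGCACNC, which reads GNGTGCA on the other strand, or TGCGCNC, which reads GNGCGCA there. The windows are again 300 bases from RefSeq on GRCm38.p6, on the plus strand, at chr8:94178839-94179138 for Mt1 and chr8:94172368-94172667 for Mt2.
Mt1: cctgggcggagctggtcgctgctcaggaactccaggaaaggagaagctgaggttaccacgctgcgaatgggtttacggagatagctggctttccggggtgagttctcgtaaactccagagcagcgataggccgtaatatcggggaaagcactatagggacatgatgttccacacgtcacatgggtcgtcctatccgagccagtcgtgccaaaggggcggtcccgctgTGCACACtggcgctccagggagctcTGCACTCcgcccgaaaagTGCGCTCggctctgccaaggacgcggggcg
Mt2: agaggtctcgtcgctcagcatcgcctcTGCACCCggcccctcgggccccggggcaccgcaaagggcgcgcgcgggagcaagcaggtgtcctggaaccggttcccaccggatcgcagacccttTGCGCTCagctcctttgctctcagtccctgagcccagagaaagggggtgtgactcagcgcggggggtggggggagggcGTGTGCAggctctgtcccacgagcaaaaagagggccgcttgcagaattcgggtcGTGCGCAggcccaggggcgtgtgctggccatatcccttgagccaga

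TGCACNC was present in all 3 metallothionein windows searched, against 14.2% of genes, and TGCGCNC in 2 of 3, against 17% of genes. The Mt1 window held 2 matches of the TGCACNC form and 1 of the other, and the Mt2 window held 2 of each. Mt3, whose term had the opposite sign, thus has the TGCACNC form in its window too.

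Chemokine and cytokine genes were induced in WT cells and less so in KO cells. Of 29 measured genes of this list, which includes NF-kB subunits and targets, palmitic acid raised 26 in WT cells and lowered none (median 2.0), whereas in KO cells it raised 13 and lowered 8 (median 0.59). The interaction term was lower for 24 and higher for none (median −1.87). After scaling 18 were lower and none was higher.

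Ccl2, the monocyte chemoattractant, had 16.0, 35.8 and 28.5 TPM in treated KO, against 17.1, 16.4 and 16.2 TPM in untreated KO cells, and 113, 140 and 200 TPM in treated WT, against 4.15, 6.00 and 3.71 TPM in untreated WT cells. The KO groups overlapped, while the treated WT libraries lay above all others. The term was −4.15 ± 0.93 (SE; limma adjusted p = 0.000761). Cxcl1, a neutrophil chemoattractant, had 21.1, 30.7 and 28.1 TPM in treated KO, against 3.21, 3.55 and 2.95 TPM in untreated KO cells, and 41.8, 51.8 and 87.7 TPM in treated WT, against 0.42, 0.60 and 0.11 TPM in untreated WT cells. It was raised in both genotypes, with a term of −2.74 ± 0.90 (SE; limma adjusted p = 0.0137). Tnfaip3, the feedback inhibitor A20, had a term of −2.60, and Nfkbia, another NF-kB inhibitor, −1.09. Il6 did not differ beyond its error, at −0.04 ± 0.44 (SE).

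Il33, an alarmin that astrocytes release, was higher in KO than in WT cells both with and without palmitic acid. It had 167, 289 and 239 TPM in treated KO, against 389, 392 and 393 TPM in untreated KO cells, and 18.6, 20.7 and 19.6 TPM in treated WT, against 5.33, 4.70 and 5.67 TPM in untreated WT cells. Every KO library was above every WT library, and palmitic acid was accompanied by lower values in KO and higher ones in WT cells, with a term of −2.52 ± 0.19 (SE). Under palmitic acid, chemokine genes were lower in KO than in WT cells for 20 of 29 and higher for 3, or 18 and 6 after scaling. Over all genes 48.5% were lower and 18.2% higher in that comparison, or 32.1% and 33.5% after scaling. In untreated cells 12 chemokine genes were higher in KO and 1 was lower, against 23.9% and 21.1% of all genes.

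Immediate early genes and a list of reactive astrocyte genes shared this direction. Of 27 immediate early genes, which respond within minutes to many stimuli, 19 had a lower term and 2 a higher one (median −1.10), or 14 and 5 after scaling, and 17 rose in both genotypes. Egr1 had 208, 275 and 256 TPM in treated KO, against 200, 192 and 198 TPM in untreated KO cells, and 170, 165 and 144 TPM in treated WT, against 21.5, 23.6 and 20.9 TPM in untreated WT cells. Untreated KO cells already stood near the treated level, and the term was −2.49 ± 0.40 (SE). In untreated cells, 23 of the 27 genes were higher in KO than in WT, against 23.9% of all genes.

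Of 11 measured genes of the list called A2-type reactive astrocyte in the field, 10 had a lower term and none a higher one (median −2.06), which scaling left at 10 and 0. The pan-reactive list had 1 higher and 8 lower terms of 13 (median −1.23), or 2 and 8 after scaling. The A1-type list had 4 higher and 5 lower terms of 12, or 5 and 5 after scaling. The lower share was 90.9% for the A2-type list, 61.5% for the pan-reactive list and 41.7% for the A1-type list, against 43.2% of all genes. For the A1-type list the higher share was 33.3%, against 14.3% of all genes. Tm4sf1, a membrane protein of the A2-type list, had 729, 784 and 719 TPM in treated KO, against 752, 707 and 758 TPM in untreated KO cells, and 600, 571 and 696 TPM in treated WT, against 136, 163 and 143 TPM in untreated WT cells. Only the untreated WT libraries were low. Timp1, an inhibitor of matrix metalloproteinases used as a marker of reactivity, had 609, 540 and 540 TPM in treated KO, against 534, 564 and 551 TPM in untreated KO cells, and 823, 830 and 954 TPM in treated WT, against 105, 103 and 95.7 TPM in untreated WT cells. The KO groups overlapped, the WT groups were far apart, and the term was −3.05 ± 0.12 (SE; limma adjusted p = 6.6e-15).

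Genes that define astrocytes fell with palmitic acid in both genotypes. All 15 measured astrocyte markers fell in KO cells (median −2.01) and in WT cells (median −1.55), although Sox9, a glial transcription factor, rose by 0.29 in KO cells after scaling. The interaction term was lower for 9 and higher for 2 (median −1.0), or 8 and 5 after scaling. Gjb6, a gap junction gene and the 16th marker, was listed at 0 in every treated library of both genotypes. The summed level of the 16 markers was 331 to 352 TPM in treated KO and 1516 to 1583 TPM in untreated KO cells, against 1169 to 1408 TPM in treated WT and 3909 to 4129 TPM in untreated WT cells.

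Gfap, the intermediate filament of astrocytes, had 2.08, 2.44 and 2.56 TPM in treated KO, against 70.6, 71.5 and 70.3 TPM in untreated KO cells, and 324, 269 and 245 TPM in treated WT, against 1080, 1206 and 1223 TPM in untreated WT cells. The 4 groups were all apart, in that order from lowest to highest. The effect was −4.42 in KO and −2.07 in WT cells, and the term was −2.35 ± 0.11 (SE; limma adjusted p = 2.37e-13). Aqp4, the water channel of astrocyte endfeet, had 2.17, 4.16 and 3 TPM in treated KO, against 133, 129 and 138 TPM in untreated KO cells, and 49.9, 46.5 and 37.8 TPM in treated WT, against 260, 254 and 292 TPM in untreated WT cells, with a term of −2.49. Slc1a3, the glutamate transporter GLAST, gave −2.69.

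A separate list of potassium, water and glutamate homeostasis had 4 higher and 12 lower terms of 17, or 4 and 8 after scaling. Some members of this list went the other way or could not be read. Glul, which converts glutamate to glutamine, fell by 1.22 in KO and 1.46 in WT cells, with a term of 0.24. Kcnj10, the inward rectifier Kir4.1, had 0.09, 0.10 and 0.07 TPM in treated KO, against 14.1, 14.8 and 13.4 TPM in untreated KO cells, and 11.1, 9.02 and 5.84 TPM in treated WT, against 199, 210 and 219 TPM in untreated WT cells. At such low levels the added constant sets the sign: the term was 0.69 with a pseudocount of 1 and −1.63 with 0.1. Outside this list, Adora2a, an adenosine receptor, had 1.28, 1.34 and 1.40 TPM in treated KO, against 0.67, 0.60 and 0.33 TPM in untreated KO cells. No WT library with or without palmitic acid exceeded 0.59 TPM. The Adora2a term of 0.42 ± 0.19 (SE) did not pass (limma adjusted p = 0.0733), although scaling gave a called 0.71.

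Markers of microglia, the resident phagocytes of the brain that persist in primary astrocyte cultures, had the lowest median interaction term of the 39 lists. Of 19 measured markers 17 had a lower term and 1 a higher one (median −3.71), or 16 and 1 after scaling. All 19 fell in KO cells (17 after scaling), whereas in WT cells 13 rose and 3 fell. The summed level of the 20 markers was 123 to 139 TPM in treated KO and 546 to 583 TPM in untreated KO cells, against 1320 to 1481 TPM in treated WT and 626 to 694 TPM in untreated WT cells.

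C1qa, a chain of complement C1q made by microglia, had 6.41, 4.85 and 5.16 TPM in treated KO, against 67.0, 78.3 and 61.6 TPM in untreated KO cells, and 202, 170 and 183 TPM in treated WT, against 69.9, 77.96 and 72.2 TPM in untreated WT cells. The untreated groups overlapped, and the treated groups lay on opposite sides of them. The term was −4.76 ± 0.16 (SE; limma adjusted p = 1.13e-15). Tyrobp, the adaptor of microglial receptors, had 11.3, 8.77 and 8.24 TPM in treated KO, against 54.5, 66.1 and 67.9 TPM in untreated KO cells, and 233, 200 and 232 TPM in treated WT, against 60.7, 69.1 and 68.7 TPM in untreated WT cells, and had the same order. Its partner Trem2 gave a term of −4.08, and the receptor Csf1r, on which microglia depend, −3.71. P2ry12 was listed at 0 in every treated KO library, and Siglech in every treated library of both genotypes and every untreated KO one. Tmem119 was the exception, with a term of 1.47: it fell by 2.06 in WT cells, and its KO effect of −0.58 was −0.11 and not called after scaling.

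The complement genes C1qa, C1qb and C1qc and the chemokines Ccl3, Ccl4 and Ccl12 are also made by microglia, and their terms stand beside the marker sums above. The part of microglial RNA in the chemokine result was not tested. Marker sums of other cell types also differed between the groups. Neuronal markers summed to 62.8 to 68.5 TPM in treated KO and 284 to 289 TPM in untreated KO cells, against 479 to 485 TPM in treated WT and 440 to 472 TPM in untreated WT cells, with 3 of the 17, Rbfox3, Gad1 and Elavl4, at 0 in every treated KO library, and Slc17a6 at 0 there and also in untreated KO and treated WT cells. Mural and fibroblast markers summed to 484 to 495 and 1199 to 1255 TPM in treated and untreated KO cells, against 710 to 793 and 1021 to 1093 TPM in treated and untreated WT cells. Oligodendrocyte lineage markers summed to 29.5 to 32.9 and 152 to 156 TPM in treated and untreated KO cells, against 152 to 207 and 492 to 522 TPM in WT cells, with Mobp and Opalin at 0 throughout. Endothelial marker sums overlapped between treated KO (10.95 to 14.7 TPM) and treated WT cells (11.1 to 12.8 TPM). These markers had 4 higher and 4 lower terms of 8. Choroid plexus and ependyma markers summed to 33.3 to 34.7 TPM in treated KO and 79.1 to 97.1 TPM in treated WT cells. Untreated sums were 120 to 124 TPM in KO and 250 to 302 TPM in WT cells. Their terms were higher for 5 and lower for 3 of 9 (median 0.87). The part of these cell types in the interaction terms was not tested.

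**Figure D5:**
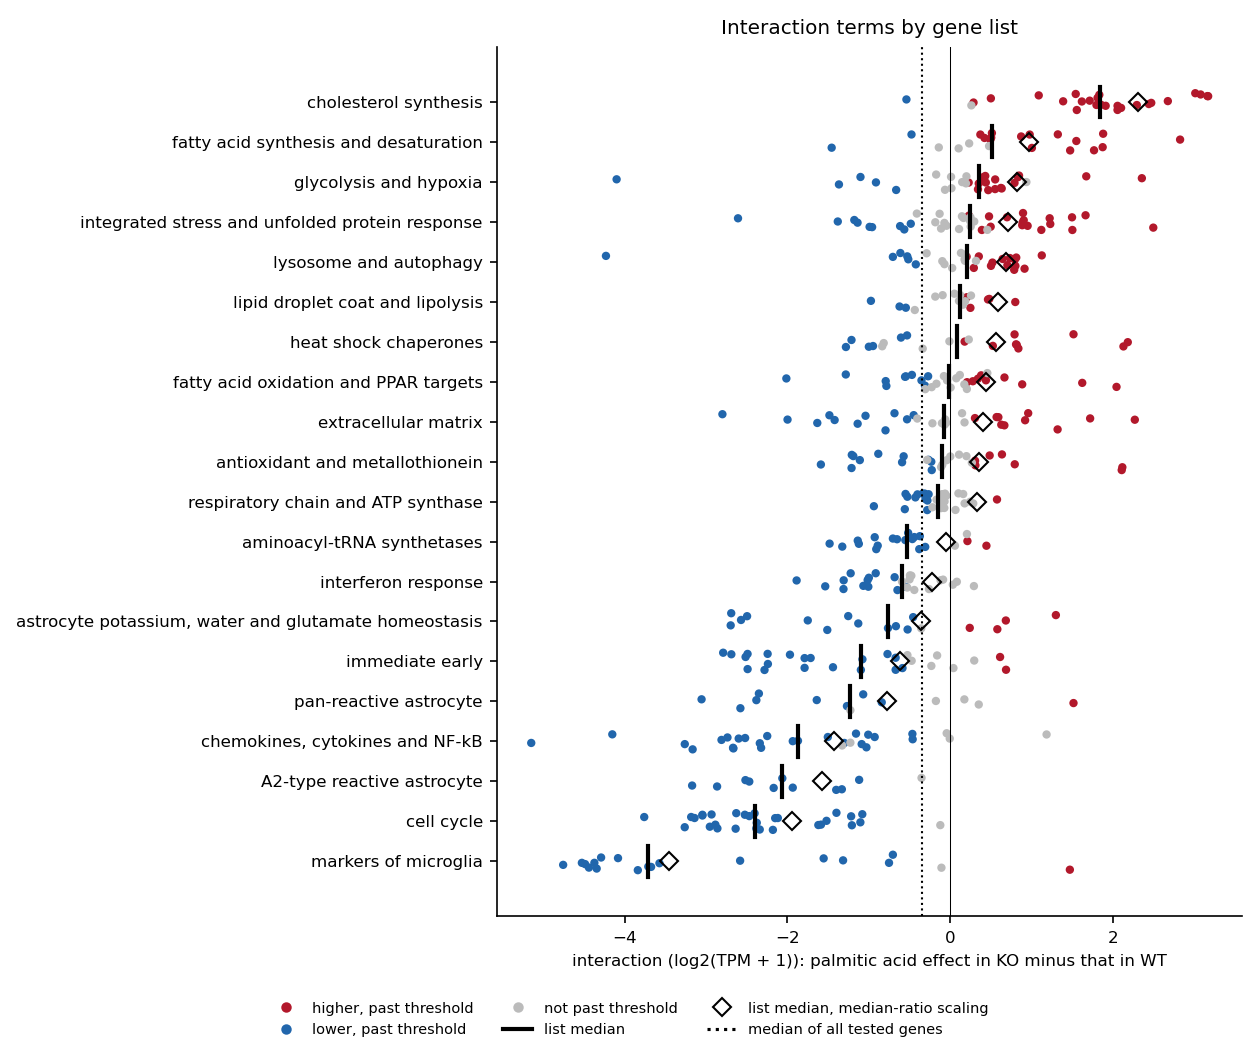
Interaction term (x axis, log2(TPM + 1)) of each measured member (points) of 20 gene lists (y axis), with the list median (bar), the list median after median-ratio scaling (diamond) and the median of all genes, −0.35 (dotted line). Cholesterol synthesis stands at the top with a median of 1.85 and microglia markers at the bottom with −3.71; scaling moves the medians of the middle lists across 0.

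Proliferation genes fell in KO cells. Of 30 cell cycle genes palmitic acid lowered all 30 in KO cells (median −2.58), or 29 after scaling, which turned E2f1, while in WT cells 10 rose and 15 fell (median −0.12). The interaction term was lower for 29 and higher for none (median −2.39), the exception being E2f1 at −0.12. After scaling 29 were lower and E2f1, an S phase transcription factor, was higher, at 0.35.

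Mki67, the proliferation antigen Ki-67, had 0.45, 2.16 and 1.41 TPM in treated KO, against 57.9, 59.5 and 60.2 TPM in untreated KO cells, and 15.4, 18.3 and 9.70 TPM in treated WT, against 35.7, 20.5 and 33.2 TPM in untreated WT cells. It fell in both genotypes without overlap and more in KO cells, with a term of −3.76 ± 0.36 (SE; limma adjusted p = 1.79e-08). Ccnb1, cyclin B1, had 7.57, 10.7 and 9.93 TPM in treated KO, against 90.2, 88.9 and 92.6 TPM in untreated KO cells, and 58.5, 56.6 and 57.8 TPM in treated WT, against 55.6, 60.03 and 58.4 TPM in untreated WT cells. The WT groups overlapped (effect −0.01, limma adjusted p = 0.94), so the whole term of −3.14 ± 0.11 (SE) lay in KO cells. In untreated cells 23 of the 30 genes were higher in KO than in WT, and none was lower, against 23.9% and 21.1% of all genes.

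Beyond these lists, the highest interaction term among the named genes was that of Igf2, an insulin-like growth factor. Igf2 had 117, 122 and 129 TPM in treated KO, against 99.2, 93.2 and 99.8 TPM in untreated KO cells, and 15.7, 13.3 and 12.1 TPM in treated WT, against 148, 161 and 145 TPM in untreated WT cells. Only the treated WT libraries were low, and the term was 3.71 ± 0.10 (SE; limma adjusted p = 7.09e-17). Aplp1, an amyloid precursor-like protein, rose in KO and fell in WT cells, with a term of 2.57. Tbc1d9, which also passed the rule for the highest terms, had 158, 83.0 and 105 TPM in treated KO, against 48.6, 23.4 and 6.04 TPM in untreated KO cells, and its WT groups overlapped. Its term of 2.43 ± 0.82 (SE; limma adjusted p = 0.0159) lost its call under 5 of the other settings.

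Among called genes above the median level, the lowest term was that of Spp1, osteopontin. Spp1 had 159, 445 and 333 TPM in treated KO, against 1613, 1591 and 1585 TPM in untreated KO cells, and 1747, 1771 and 1841 TPM in treated WT, against 214, 205 and 201 TPM in untreated WT cells. Palmitic acid was accompanied by low values on one background and high values on the other, with no overlap, and the term was −5.58 ± 0.31 (SE; limma adjusted p = 3.18e-12). Rgs8, a regulator of G protein signalling, had 3.11, 3.08 and 2.82 TPM in treated KO, against 40.8, 39.9 and 39.1 TPM in untreated KO cells, and 73.7, 73.3 and 73.5 TPM in treated WT, against 17.5, 18.7 and 16.2 TPM in untreated WT cells, with a term of −5.37. Vgf, a secreted neuropeptide precursor, followed the same pattern, at −4.86. Ncan, the proteoglycan neurocan, fell by 4.70 in KO cells and had an uncalled WT effect of 0.20. The term of mt-Co2, a mitochondrial cytochrome oxidase subunit, was −4.85 ± 1.53 (SE), but 1 untreated WT library was listed at 0 for it and the 3 libraries of each group differed widely.

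Among genes above the median level whose libraries did not overlap, Ddit3, Hspa1a, Hspa1b and Trib3 led the rises in KO cells, and Akr1c14, Aqp4, Mki67 and Sparcl1 the falls. In WT cells the leading rises were Areg, an EGF receptor ligand, Mmp3, a matrix metalloproteinase, Fosl1, an AP-1 subunit, and Ccl2, while Cxcl1, which rose by 5.43, lay below the median level. Areg had 395, 512 and 474 TPM in treated KO, against 61.9, 60.4 and 55.4 TPM in untreated KO cells, and 98.0, 117 and 109 TPM in treated WT, against 0.22, 0.29 and 0.32 TPM in untreated WT cells. Both genotypes rose, untreated WT cells had almost none of it, and the term was −3.48. The leading falls in WT cells were Aldoc, H19, Kcnj10 and Slco1a4, and Aldoc, a glycolytic enzyme enriched in astrocytes, fell by 3.57 in WT and by 1.21 in KO cells, with a term of 2.36.

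Genotype made a difference before any fatty acid was given. In untreated cells 7258 genes (44.9%) differed between KO and WT, with 3855 higher (23.9%) and 3403 lower (21.1%) in KO, or after scaling 6898 (42.9%), 3364 higher (20.9%) and 3534 lower (22%). Under palmitic acid 10777 genes (66.7%) differed, with 2941 higher (18.2%) and 7836 lower (48.5%), or after scaling 10567 (65.6%), 5398 higher (33.5%) and 5169 lower (32.1%). The cholesterol list changed sides: in untreated cells 23 of 26 genes were lower in KO than in WT and 2 were higher (median −0.95), whereas under palmitic acid 20 were higher and none lower (median 1.13). Microglia markers were lower in KO for 8 of 19 untreated and for 18 of 19 under palmitic acid.

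The interaction was not the same with oleic acid. The 2 fatty acids share their untreated groups, so the difference of the interactions was tested directly. It passed for 9368 of 16161 genes (58%), with 2753 higher (17%) and 6615 lower (40.9%) for palmitic acid, or after scaling 9488 genes (58.9%), 4797 higher (29.8%) and 4691 lower (29.1%). For cholesterol synthesis 25 of 26 genes were higher with palmitic acid and none was lower (median 1.65), and the median oleic acid interaction was 0.13.

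Insig1 averaged 34.8 ± 1.64 TPM in KO cells given oleic acid and 85.7 ± 7.73 TPM in WT cells given it (SD, n = 3 each), and its palmitic acid interaction exceeded its oleic acid one by 3.28. For microglia markers 18 of 19 were lower with palmitic acid (median −4.38), and for the cell cycle 29 of 30 (median −2.93). C1qa averaged 252 ± 24.9 TPM in KO and 183 ± 21.1 TPM in WT cells given oleic acid (SD, n = 3 each). For immediate early genes the median interaction was −1.10 with palmitic acid and −1.48 with oleic acid, and the difference was higher for 12 and lower for 7 of 27. For the A2-type list 9 of 11 genes were lower with palmitic acid and none was higher (median −1.34), or 6 and 1 after scaling, and the median oleic acid interaction was −0.06. Tm4sf1 was an exception in that list, with terms of −2.06 with palmitic and −2.25 with oleic acid, and the difference of 0.19 ± 0.11 (SE) did not pass (limma adjusted p = 0.16). For chemokine and cytokine genes 22 of 29 were lower with palmitic acid and 1 was higher (median −2.23), or 21 and 4 after scaling, and the median oleic acid interaction was 0.48. Within that list Ccl2 varied widely in KO cells given oleic acid, at 97.8 ± 146 TPM (SD, n = 3).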

How the data were processed

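The files used here are the table of primary astrocytes, with 1 column for each of 27 libraries and 53700 genes. The authors deposited TPM values, a length-corrected share of each library, as read from the column totals, which are nearly equal in all libraries. Per the submitters' processing notes, HISAT2, StringTie and RSEM were used with the mm10 build; neither versions nor roles are stated there, so strand handling and the treatment of shared reads are unknown. TPM keeps no depth, and no counting interval can be given.

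From these values, log2(TPM + 1) was fitted with limma 3.58.1 in R 4.3.3 (trend option) over all 27 libraries in 9 groups, for the 16161 genes that reached 1 TPM in 3 or more libraries. Folds on this scale understate the change of low genes. The p-values were adjusted over all genes by Benjamini-Hochberg at 0.05, and they reflect library-to-library spread alone, possibly technical. The fit took a common spread per gene for all 9 groups, although the groups differed. The median SD per gene was 0.170 in KO cells with palmitic acid and 0.0863 in untreated KO cells. It was 0.110 in WT cells with palmitic acid and 0.100 in untreated WT cells. P-values that involve the KO palmitic acid group may therefore be too small. On simulated data with 16161 genes, the fit for the interaction recovered 88 of 100 genes changed 2-fold and 95 of 100 changed 4-fold, and called 11 unchanged genes. The simulation used independent normal noise with the same spread per gene in all groups, and changed only genes above the median level. All other genes had no interaction in it. It therefore does not cover the unequal spread or the wide shift of the real libraries.

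Genes named are Apoe, Adora2a, Gfap and Plin2, the 12 highest and 12 lowest called interaction terms above the median level, the 4 largest rises and falls above that level within each genotype without overlap of libraries, and up to 4 members with the smallest p of each list; list members with a plain role were also described. The members and lists were chosen with earlier results of these data known, and the ribosomal protein genes were added after seeing the values. Replicate numbers were checked as pairs: deviations of libraries with the same number had correlations between −0.107 and 0.0718. No pairing by number was seen, and no block was used in the main fit. The labels do not say whether libraries with the same number shared a culture or batch, and this check cannot settle it. No pair of libraries within a group was identical. Alternatives were another scaling, pseudocount, filter, threshold, length and weight terms, fewer groups and each library left out. Promoter windows came from RefSeq on GRCm38.p6. A few genes are not reported here by name, although list counts include them.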

Additional observations from a re-analysis of the deposited data

Results flagged for a closer look

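Palmitic acid had opposite called effects in the 2 genotypes, with a called difference between them, for 248 genes that rose in KO and fell in WT astrocytes and for 1064 genes that fell in KO and rose in WT astrocytes. Cholesterol synthesis supplied 15 of the 248. After median-ratio scaling these counts were 587 and 632, so the imbalance between the directions depended on the scale. Under limma, 9368 genes had a palmitic acid interaction that differed from the oleic acid interaction. The groups hold 3 libraries each, so no single library was tested as an outlier.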

How the results depend on the processing

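Counts of called genes stayed within 1.5 times under every alternative except a 2-fold threshold, which left 3947 interaction terms, 5279 genes for palmitic acid in KO, 2724 in WT, 3790 for KO against WT with palmitic acid, 1712 untreated and 4249 for palmitic minus oleic acid. Leaving out 1 library gave 8571 to 9846, 11442 to 12074, 8824 to 9165, 9814 to 10836, 6417 to 6628 and 8623 to 9787 in the same order. The replicate block gave 9174 interaction calls and changed no other count by over 1.5 times. Library weights gave 10719, a length trend 8812 (4363 higher, 4449 lower) and a fit of the contrast's groups alone 8509. The KO palmitic acid library titled mix had a weight of 7.72, and its partners had 0.108 and 0.385. With weights that group thus rested largely on the library titled mix. Of 3806 checks of named genes, 3739 kept direction and call, 60 lost the call, 4 gained it and 3 reversed: Cox5a at 0.0813 and Sdhd at 0.0533 with median-ratio scaling, and Kcnj10 at −1.63 with a pseudocount of 0.1. Most named genes were picked from these same data for large terms or small p-values. That choice favours kept calls, so the share kept does not describe genes in general. The cholesterol list had 23 to 25 higher terms over 21 settings, the chemokine list 18 to 26 lower, the cell cycle 29 to 30 and microglia markers 15 to 18. The term of mt-Co2 lost its call with the contrast's groups alone (adjusted p = 0.0674). The cause of these changes was not tested. TPM gives no depth, so what depth limits is unknown.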

Other observations

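Genes of glycolysis and of the response to low oxygen had 16 higher and 5 lower interaction terms of 29 (median 0.35), or 22 and 4 after scaling. Slc2a1, the glucose transporter GLUT1, had 98.4, 99.0 and 103 TPM in treated KO, against 34.0, 31.2 and 35.1 TPM in untreated KO cells, and 54.0, 54.5 and 55.0 TPM in treated WT, against 57.7, 63.7 and 56.7 TPM in untreated WT cells. Its KO libraries rose without overlap, its WT effect of −0.12 was not called, and the term was 1.67. Adm, the vasodilator peptide adrenomedullin, went the other way, at −4.10. Lysosome and autophagy genes had 14 higher and 6 lower terms of 29 (median 0.20), or 21 and 1 after scaling, with Gpnmb, a glycoprotein of phagocytic cells, at −4.23.

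Over all genes 14.3% had a higher and 43.2% a lower term, or 28.8% and 26.4% after scaling, and several lists lay near these shares or turned with the scale. Respiratory chain genes had 1 higher and 12 lower terms of 28 (42.9% lower), and 11 higher and 1 lower after scaling. Smooth muscle contractile genes fell in both genotypes, 15 of 15 in KO and 14 of 15 in WT cells, with 10 lower interaction terms. Over all genes 55.4% fell in KO and 33.1% in WT cells, or 38.9% and 30.3% after scaling. Extracellular matrix genes fell as well, 26 of 30 in KO and 23 of 30 in WT cells, with 10 higher and 11 lower terms, or 16 and 9 after scaling; on that scale 19 fell and 6 rose in KO cells. Interferon response genes had 13 lower terms of 25 (52%) and none higher, and 6 lower (24%) and 2 higher after scaling. Fatty acid oxidation genes had 9 higher and 10 lower terms of 30, or 17 and 3 after scaling. Sphingolipid genes had 6 higher and 8 lower of 26, or 13 and 5 after scaling, and p53 response genes 5 and 7 of 20, or 10 and 4. The balance also turned for fatty acid activation, with 5 higher and 9 lower of 19, or 10 and 6 after scaling, and for antioxidant and metallothionein genes, with 7 and 11 of 26, or 13 and 6. Triglyceride and phospholipid synthesis had 4 higher and 8 lower of 25, or 10 and 5, metalloproteinases and their inhibitors 6 and 8 of 21, or 9 and 7, and mural and fibroblast markers 3 and 4 of 13, or 6 and 4.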
